A study of Mus musculus with 9 samples.

Results

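Microglia are the resident macrophages of the brain, and their genes were followed here in the cerebella of mice with an activated Smoothened transgene. A list of 37 genes known to mark microglia was followed, each through the brightest probe set, by mean over the 9 arrays, of those annotated with its symbol alone. Of the 37 genes, 33 were measured among 19147 genes in all, and Itgb2, Cd14, Cd68 and Ctss had no such probe set and are not analysed here. The series holds total RNA from 9 C57BL/6 mice at postnatal day 5, hybridised to 1 Affymetrix array each, in 3 groups of 3. The controls were wild type. The SmoA2 mice carry an activating mutation of Smoothened, the membrane protein that relays the Sonic hedgehog signal. In the published SmoA lines a Neurod2 (ND2) promoter fragment drives the transgene in granule neuron precursors, a point on which the labels are silent. The third group is labelled Smo/Smo, a name used in the field for mice homozygous for the related SmoA1 transgene, although the labels do not name SmoA1. Codes in the titles of wild type and SmoA2 samples share a prefix that Smo/Smo samples do not have, and the labels do not say what it stands for. An effect of whatever the prefix marks and one of the Smo/Smo genotype cannot be told apart.

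Microglia arise from yolk sac progenitors, depend on the receptor Csf1r and the transcription factors Spi1 (PU.1) and Irf8, and divide and spread through the cerebellum in the first postnatal weeks. There they clear dying cells and remodel synapses. Their surface carries purinergic receptors that sense nucleotides, immunoreceptors that signal through the adaptor Tyrobp, and the fractalkine receptor Cx3cr1, and they are a main source of complement C1q in the brain. Many of these genes are shared with macrophages of the meninges and choroid plexus and with blood leukocytes. In whole tissue, fewer microglia and less of a transcript per microglial cell cannot be told apart.

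Promoter windows are shown for 3 members that differed between the mutant lines, because PU.1, the factor on which the lineage depends, recognises the PU-box GAGGAA. The windows run from 250 bases before to 50 bases after the RefSeq start in build GRCm38.p6, are written 5′ to 3′ on the strand of the gene, and have the PU-box, or its reverse complement, in capitals. Trem2 lies at chr17:48346151-48346450 on the forward strand, Aif1 at chr17:35176003-35176302 on the reverse strand and P2ry12 at chr3:59262936-59263235 on the reverse strand.
Trem2: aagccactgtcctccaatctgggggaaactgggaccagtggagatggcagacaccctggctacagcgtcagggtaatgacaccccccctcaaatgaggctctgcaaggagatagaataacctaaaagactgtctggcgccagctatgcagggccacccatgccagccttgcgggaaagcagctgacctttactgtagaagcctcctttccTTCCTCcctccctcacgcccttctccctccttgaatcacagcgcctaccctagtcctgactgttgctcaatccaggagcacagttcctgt
Aif1: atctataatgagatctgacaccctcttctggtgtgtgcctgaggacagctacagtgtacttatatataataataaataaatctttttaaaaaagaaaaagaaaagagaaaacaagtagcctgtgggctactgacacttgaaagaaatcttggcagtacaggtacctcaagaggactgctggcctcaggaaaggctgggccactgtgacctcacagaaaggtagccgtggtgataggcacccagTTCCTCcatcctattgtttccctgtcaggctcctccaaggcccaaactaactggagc
P2ry12: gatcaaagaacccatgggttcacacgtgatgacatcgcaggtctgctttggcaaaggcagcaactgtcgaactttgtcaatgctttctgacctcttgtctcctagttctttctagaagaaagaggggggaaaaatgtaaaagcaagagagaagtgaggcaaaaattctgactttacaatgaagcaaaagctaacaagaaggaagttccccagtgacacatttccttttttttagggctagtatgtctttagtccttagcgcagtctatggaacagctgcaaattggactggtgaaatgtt
The match on the opposite strand began 40 bases before the start in Trem2 and 7 bases before it in Aif1, and no match to this hexamer was found in the P2ry12 window. Windows were at hand for 27 of the 37 members. Of their 31 windows 19, or 61.3%, held the hexamer on either strand, against 28.3% of all 32851 windows of the same length. This hexamer was adopted after 7 other motifs had been searched in the same windows on both strands and their shares seen, so its share was not chosen independently of the data. The shares of member windows and of all windows were, in the order searched, GGAAGT (48.4% and 23.8%), AGGAAG (77.4% and 35.4%), GAGGAAGT (16.1% and 3.2%), the ETS-IRF composite element, 10 letters long (3.23% and 2.72%), TATAAA (19.4% and 13.6%), GGGCGG (29% and 35.7%) and CACGTG (6.45% and 7.15%). The first 3 of these and the adopted hexamer overlap one another in letters, and AGGAAG was in a larger share of member windows than the adopted one. The P2ry12 window, which lacks the adopted hexamer, holds both AGGAAG and GGAAGT. No test was made of any of these shares, and a match is a stretch of letters and not a measured binding site.

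Values are log2 of the deposited RMA intensities. Array medians of intensity ran from 91 to 95.1, and pairs of arrays correlated at 0.994 to 0.9975 over all probe sets. The tissue label was borne by the cerebellar genes Zic1, with log2 levels of 13.1 to 13.3, and En2 (11.8 to 12.1), while the forebrain factor Emx1 lay at 3.47 to 4.06. Wild type replicate 3 stood apart in choroid plexus genes, with a transthyretin (Ttr) level of 4.95 against 11.3 to 12.1 in the other arrays. By their Xist level, 2 wild type mice and 1 mouse of each mutant group were female. Probe sets of Y-linked genes in females read 4.85 to 5.57 for Kdm5d and 2.23 to 3.21 for Uty and Eif2s3y, which gives a rough range for background. Csf3r, Adora3, Itgam and Lyz2 had every group mean at or below 5.57, and the other 29 members had at least 1 group mean above it. The values of 3 arrays per group limit the precision. The p-values set a group difference against the spread between these mice, pooled over the 3 groups and moderated across genes.

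The member genes did not move evenly over the arrays. Measured from the wild type mean of each gene, the median of the 33 members was -0.09, 0.07 and 0.02 in the wild type arrays and 0.15, 0.03 and 0.21 in SmoA2. It was -0.11, -0.22 and -0.21 in Smo/Smo. The medians of the 3 Smo/Smo arrays thus lay below all others, and those of SmoA2 overlapped the wild type range. SmoA2 replicate 3 held the highest of the 9 values in 18 of 33 members, and Smo/Smo replicates 2 and 3 held the lowest in 10 and 11. The median within-group standard deviation of a member was 0.13 in wild type mice, 0.15 in SmoA2 mice and 0.13 in Smo/Smo mice on the log2 scale, against 0.08, 0.11 and 0.08 over all genes.

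**Figure D1:**
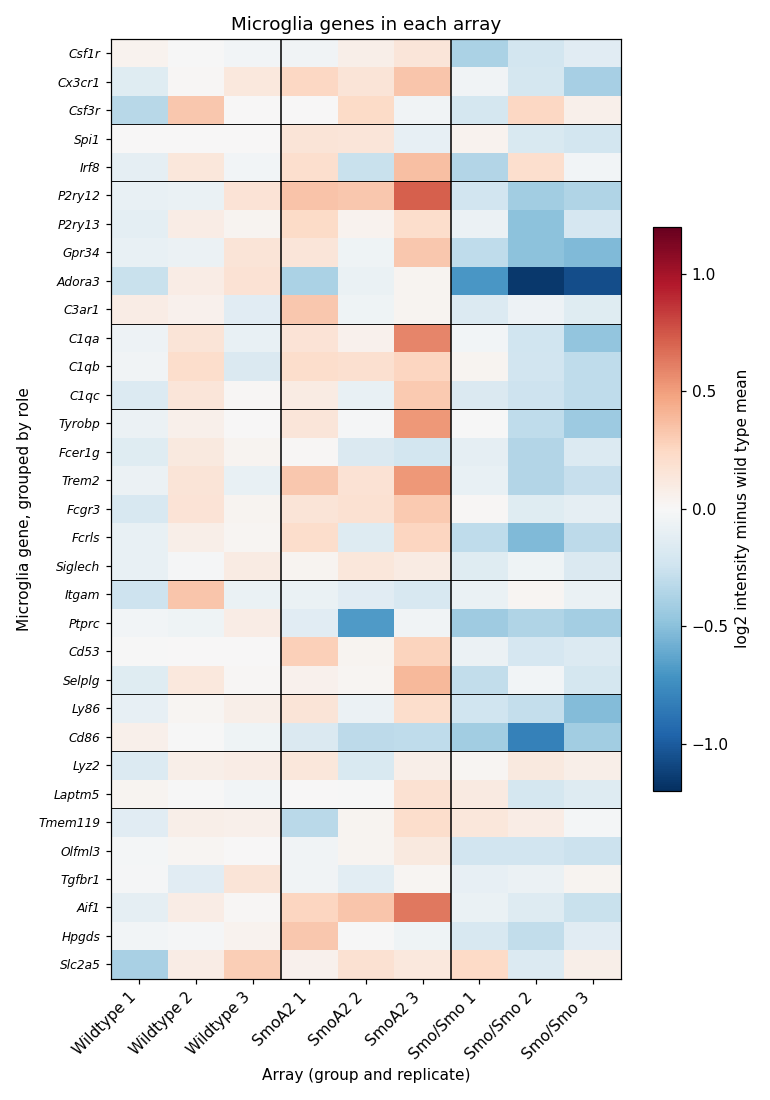
Log2 intensity of the 33 measured microglia genes (rows, grouped by role) in the 9 arrays (columns), drawn as the difference from the wild type mean of each gene. SmoA2 replicate 3 is the highest array in 18 rows, and Smo/Smo replicates 2 and 3 are the lowest in 10 and 11.

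The comparison of SmoA2 with Smo/Smo asked how the 2 lines with activated Smoothened differ from each other. Of the 33 members, 6 were called higher in SmoA2, none was called lower and 27 were not called. The 6 were P2ry12, Gpr34, Adora3, Trem2, Aif1 and Olfml3, and Tmem119, Itgam and Lyz2 lay below 0. The calls make up 18.2% of the members, and in this comparison 2.56% of all genes were called, 1.02% higher in SmoA2 and 1.54% lower (limma, Benjamini-Hochberg adjusted p under 0.05 over 19147 genes). The median log2 difference of the members was 0.29, with 30 above 0 and 3 below, while the median over all genes was -0.003. In 21 members the 3 SmoA2 arrays lay above all 3 Smo/Smo arrays, and in none below. Such separation held for 63.6% of members and for 18.2% of all genes, 8.12% higher in SmoA2 and 10.1% lower. The number called was sensitive to single arrays, and the direction of the median was not. Leaving out SmoA2 replicate 2 gave 7, wild type replicate 3 gave 5, wild type replicate 1 and Smo/Smo replicate 1 gave 4 each, and wild type replicate 2 and SmoA2 replicate 1 gave 3 each. Only 2 were called without SmoA2 replicate 3 (Aif1 and P2ry12), 1 without Smo/Smo replicate 3 (P2ry12) and 0 without Smo/Smo replicate 2, where all genes called fell from 490 to 170. The median stayed between 0.26 and 0.34 in these fits. Leaving out a wild type array cannot change a difference between the 2 mutant lines, so the median was 0.29 there by construction. Only the fits without a SmoA2 or Smo/Smo array bear on its direction.

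Purinergic and related receptors held 3 of the 6 calls. P2ry12, the ADP receptor with which microglia steer their processes to sites of ATP release, read 8.82, 8.83 and 9.07 in wild type mice, 9.25, 9.23 and 9.62 in SmoA2 mice and 8.68, 8.49 and 8.55 in Smo/Smo mice. No group overlapped another. The difference between the lines was 1.74-fold (0.80 ± 0.12 on the log2 scale, SE, n = 3 per group, limma adjusted p = 0.01). It remained called in 8 of 9 fits that left out 1 array, the exception being Smo/Smo replicate 2 (adjusted p = 0.0518). Its neighbour on the chromosome, the ADP receptor gene P2ry13, differed in the same direction by 0.42 ± 0.11 without a call (limma adjusted p = 0.0982), and SmoA2 lay above Smo/Smo in every array.

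Gpr34, a receptor for lysophosphatidylserine, read 7.50, 7.53 and 7.75 in wild type mice, 7.74, 7.54 and 7.91 in SmoA2 mice and 7.28, 7.10 and 7.06 in Smo/Smo mice. SmoA2 overlapped wild type, and Smo/Smo lay below both. SmoA2 was 1.5-fold above Smo/Smo (0.59 ± 0.11, limma adjusted p = 0.0291), a call that ended without wild type replicate 2, SmoA2 replicates 1 or 3, or Smo/Smo replicates 2 or 3 (adjusted p up to 0.113). Adora3, the adenosine A3 receptor, read 4.95, 5.30 and 5.39 in wild type mice, 4.83, 5.13 and 5.24 in SmoA2 mice and 4.51, 4.05 and 4.15 in Smo/Smo mice. All of these lay within or below the range of Kdm5d in females, so no fold is given. The fit called it (limma adjusted p = 0.0314), and lost it without wild type replicate 2, SmoA2 replicates 2 or 3, or Smo/Smo replicates 2 or 3 (up to 0.12). C3ar1, the receptor for complement C3a, differed by 0.22 ± 0.10 without a call (limma adjusted p = 0.371).

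Of the genes around the adaptors Tyrobp and Fcer1g, whose immunoreceptor tyrosine-based activation motifs (ITAMs) pass on receptor signals, 1 of 6 was called. Trem2, a lipid-sensing receptor that pairs with Tyrobp, read 8.16, 8.38 and 8.15 in wild type mice, 8.55, 8.40 and 8.75 in SmoA2 mice and 8.14, 7.88 and 7.95 in Smo/Smo mice. Its 3 groups did not overlap. The difference between the lines was 1.49-fold (0.58 ± 0.11, limma adjusted p = 0.0295), and it lost its call without wild type replicate 1, SmoA2 replicates 1 or 3, or Smo/Smo replicates 2 or 3 (up to 0.117). Tyrobp itself read 9.67, 9.80 and 9.75 in wild type mice, 9.88, 9.73 and 10.26 in SmoA2 mice and 9.73, 9.44 and 9.30 in Smo/Smo mice. Its highest value came from SmoA2 replicate 3. SmoA2 replicate 1 also lay above both other groups, and SmoA2 replicate 2 lay within their range. The difference of 0.47 ± 0.14 was not called (limma adjusted p = 0.159). Fcrls, an Fc receptor-like gene used to tell microglia from other macrophages, read 8.17, 8.33 and 8.28 in wild type mice, 8.48, 8.11 and 8.52 in SmoA2 mice and 7.96, 7.73 and 7.95 in Smo/Smo mice. Smo/Smo lay below both other groups, and the difference from SmoA2 of 0.49 ± 0.11 narrowly missed the threshold (limma adjusted p = 0.0645). The IgG receptor gene Fcgr3 and the lectin gene Siglech gave 0.29 and 0.21, and Fcer1g 0.08, with no call.

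**Figure D2:**
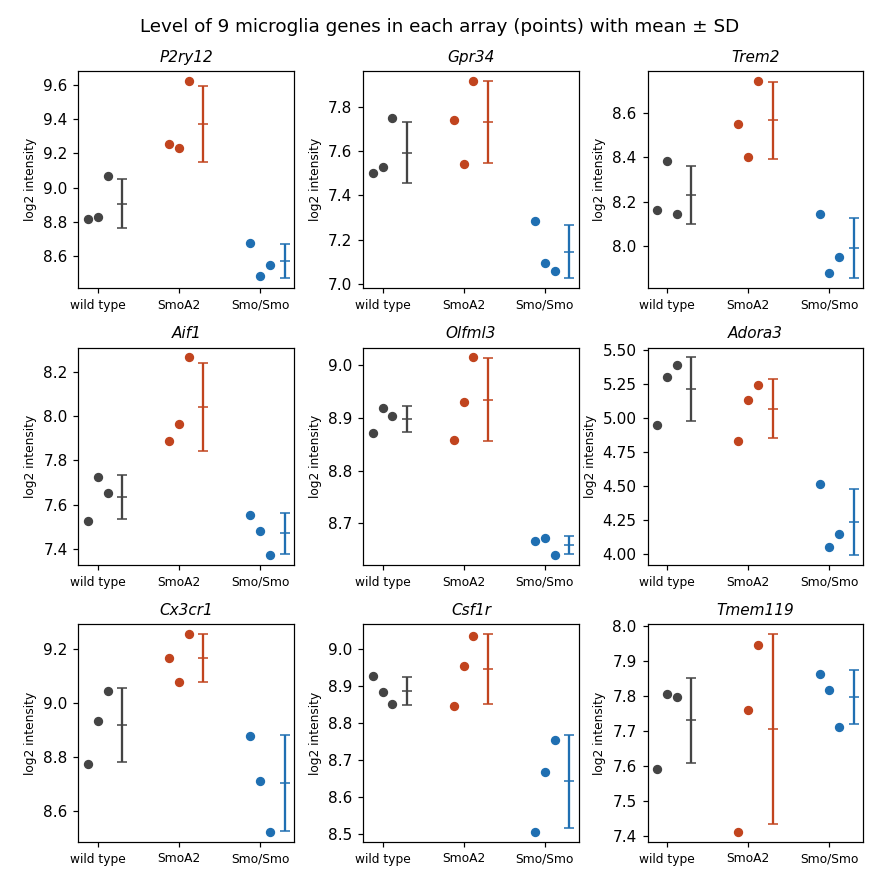
Log2 intensity of 9 microglia genes in each array (points) with the mean ± SD of the group beside them (n = 3 per group; each panel has its own axis). In P2ry12 the 3 groups are separate, from 8.49 to 8.68 in Smo/Smo up to 9.23 to 9.62 in SmoA2, whereas the Tmem119 groups overlap.

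Aif1, which encodes the actin-binding protein Iba1 used to stain microglia, read 7.53, 7.72 and 7.65 in wild type mice, 7.89, 7.97 and 8.27 in SmoA2 mice and 7.55, 7.48 and 7.37 in Smo/Smo mice. SmoA2 lay above both other groups, which overlapped. SmoA2 was 1.49-fold above Smo/Smo (0.57 ± 0.10, limma adjusted p = 0.0251), and among the fits with 1 array left out the call ended without Smo/Smo replicate 1, 2 or 3 (adjusted p up to 0.0953). It also ended with only the 2 lines fitted and with replicate 3 of wild type and of SmoA2 dropped together (up to 0.0735). Olfml3, a secreted olfactomedin-domain protein, read 8.87, 8.92 and 8.90 in wild type mice, 8.86, 8.93 and 9.01 in SmoA2 mice and 8.67, 8.67 and 8.64 in Smo/Smo mice. SmoA2 overlapped wild type, and Smo/Smo lay below both. Its difference was 1.21-fold (0.27 ± 0.06, limma adjusted p = 0.0434), and this call ended in each of the 9 fits with 1 array left out (0.0544 to 0.138). Tmem119, a membrane protein used as a microglial marker, read 7.59, 7.80 and 7.80 in wild type mice, 7.41, 7.76 and 7.94 in SmoA2 mice and 7.86, 7.82 and 7.71 in Smo/Smo mice. The groups overlapped, with a difference between the lines of -0.09 ± 0.13 (limma adjusted p = 0.823). Hpgds, the prostaglandin D synthase of haematopoietic cells, gave 0.29, the fructose transporter gene Slc2a5 0.07 and the TGF-beta receptor gene Tgfbr1 0.00, none of them called.

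None of the 3 receptors for growth factors and fractalkine was called. Cx3cr1, the fractalkine receptor, read 8.78, 8.93 and 9.04 in wild type mice, 9.17, 9.08 and 9.25 in SmoA2 mice and 8.88, 8.71 and 8.52 in Smo/Smo mice. Every SmoA2 array lay above the 6 others. The difference between the lines was 0.46 ± 0.10 (limma adjusted p = 0.0542), and a further Cx3cr1 probe set, called in a limma fit of all probe sets, gave 0.51 (adjusted p = 0.0223). Csf1r, the receptor for the survival factors Csf1 and Il34, read 8.93, 8.88 and 8.85 in wild type mice, 8.85, 8.95 and 9.03 in SmoA2 mice and 8.51, 8.67 and 8.75 in Smo/Smo mice. Smo/Smo lay below both other groups, which overlapped, and the difference of 0.30 ± 0.08 was not called (limma adjusted p = 0.0892). Csf3r, the G-CSF receptor of neutrophils and their precursors, gave 0.03 near background. Neither transcription factor was called: Spi1 differed by 0.19 ± 0.09 (limma adjusted p = 0.391) and Irf8 by 0.16 ± 0.18 (0.771).

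The 3 C1q genes, which stand next to one another on the chromosome and encode the chains of the complement recognition protein, were each higher in all SmoA2 arrays than in all Smo/Smo arrays. C1qa read 8.59, 8.81 and 8.56 in wild type mice, 8.82, 8.71 and 9.24 in SmoA2 mice and 8.62, 8.42 and 8.19 in Smo/Smo mice. SmoA2 replicate 3 was the highest array, and both lines overlapped wild type. The differences between the lines were 0.51 ± 0.15 for C1qa, 0.39 ± 0.11 for C1qb and 0.35 ± 0.11 for C1qc, and none was called (limma adjusted p = 0.141, 0.132 and 0.171).

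Among surface and adhesion genes, Cd53, a leukocyte tetraspanin, read 9.21, 9.22 and 9.22 in wild type mice, 9.51, 9.25 and 9.48 in SmoA2 mice and 9.15, 9.02 and 9.05 in Smo/Smo mice. The 3 groups did not overlap, and the difference between the lines of 0.34 ± 0.08 just missed the threshold (limma adjusted p = 0.0532). Ly86, which encodes the MD-1 partner of a Toll-like receptor homologue, read 9.57, 9.69 and 9.74 in wild type mice, 9.83, 9.60 and 9.88 in SmoA2 mice and 9.43, 9.38 and 9.15 in Smo/Smo mice, with a difference of 0.45 ± 0.10 (limma adjusted p = 0.0535). Smo/Smo was again the group below both others. Ptprc, the CD45 phosphatase of all leukocytes, read 5.62, 5.61 and 5.74 in wild type mice, 5.52, 4.98 and 5.62 in SmoA2 mice and 5.24, 5.30 and 5.25 in Smo/Smo mice, close to the background range, and differed by 0.11 ± 0.14 between the lines. Selplg, the P-selectin ligand, gave 0.33, the lysosomal membrane gene Laptm5 0.15, and Itgam and Lyz2, both near background, -0.09 and -0.06, without a call.

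**Figure D3:**
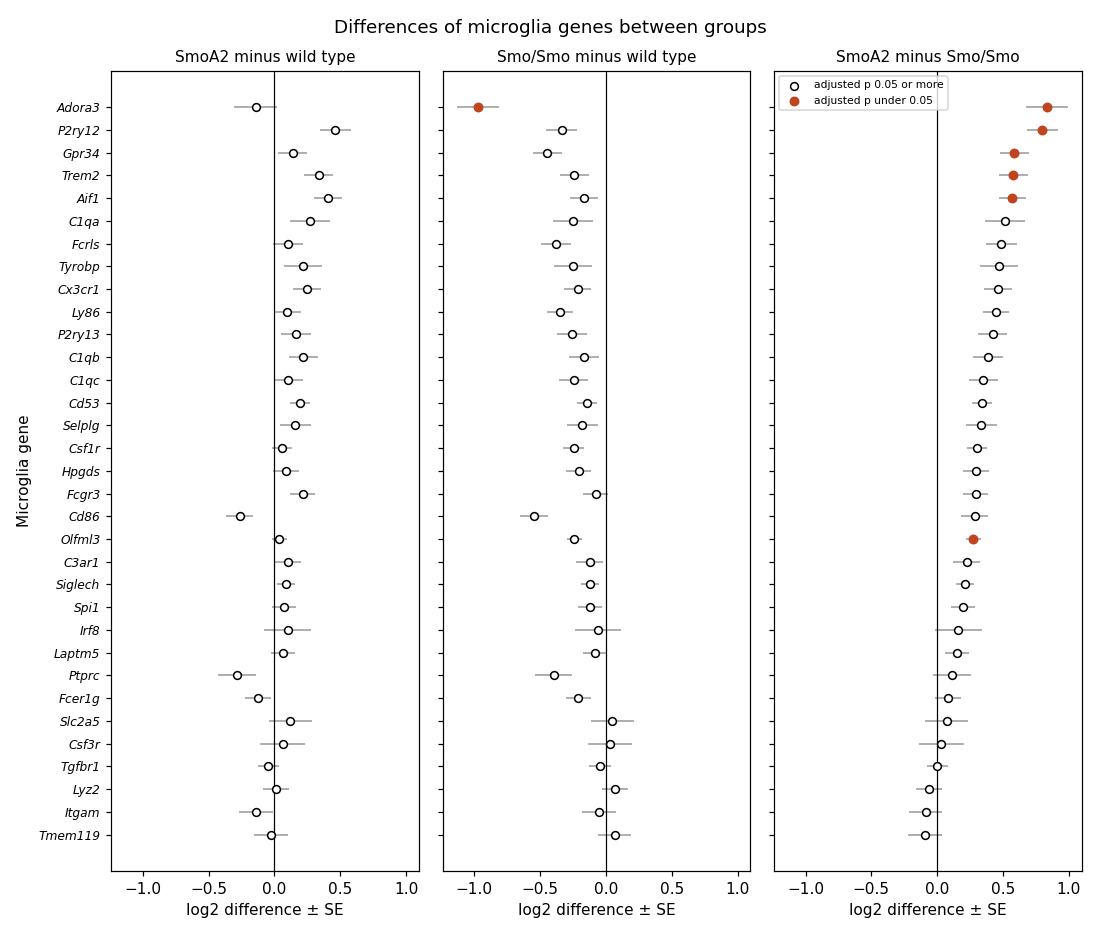
Log2 difference ± SE of each of the 33 microglia genes in 3 comparisons that share arrays (n = 3 per group), in the order of SmoA2 minus Smo/Smo. Filled points have a limma adjusted p under 0.05: 0 in SmoA2 against wild type, 1 in Smo/Smo against wild type and 6 in SmoA2 against Smo/Smo.

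Against wild type, no member was called in SmoA2, where 2.69% of all genes were called, 0.961% higher and 1.73% lower. Under limma, 6 members had an unadjusted p under 0.05, 5 higher and 1 lower, and 14.8% of all genes did. An intensity trend with robust eBayes called 1, P2ry12. The median of the members was 0.10, with 26 above 0 and 7 below, and the median over all genes was 0.006. Of the 6 members with 2 probe sets, the dimmer one or the one not used lay below 0 in Hpgds (-0.10), Irf8 (-0.17) and Siglech (-0.11), where the one used lay above. It lay above 0, as did the one used, in C3ar1 (0.05) and Cx3cr1 (0.21). P2ry12 (0.46 ± 0.12, limma adjusted p = 0.0836) and Aif1 (0.41 ± 0.10, 0.0856) came nearest to a call. Trem2 (0.34 ± 0.11), Cx3cr1 (0.25 ± 0.10) and Cd53 (0.20 ± 0.08) were the other members in which each SmoA2 array lay above each wild type array. Cd86 was the 1 member separated the other way. The groups were separated in 6 of 33 members, or 18.2%, against 19.1% of all genes (8.89% higher in SmoA2 and 10.2% lower).

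Against wild type, 1 member was called in Smo/Smo, Adora3, which was lower (limma adjusted p = 0.0476), where 0.371% of all genes were called and 0.157% were called lower. Its levels lie in the background range given above, and its call held in only 1 of the 9 fits with 1 array left out, the one without Smo/Smo replicate 1 (adjusted p = 0.0445, and up to 0.204 in the others). The median of the members was -0.21, with 29 below 0 and 4 above. The 3 Smo/Smo arrays lay below the 3 wild type arrays in 13 members and above them in none. This is 39.4% of the members, against 15.9% of all genes, with 8.12% lower in Smo/Smo. Under limma, 10 members had an unadjusted p under 0.05, all lower, as did 8.77% of all genes in either direction. Cd86, a co-stimulatory ligand for T cells, read 7.17, 7.11 and 7.06 in wild type mice, 6.94, 6.79 and 6.81 in SmoA2 mice and 6.69, 6.31 and 6.70 in Smo/Smo mice. Wild type was the highest group and Smo/Smo the lowest, with no overlap between any of them. Its difference from wild type was -0.55 ± 0.11 in Smo/Smo (limma adjusted p = 0.0966) and -0.26 ± 0.11 in SmoA2 (0.279), and its second probe set gave -0.05 and -0.17. For SmoA2 minus Smo/Smo, the Cd86 probe set used gave 0.28 and the second -0.12, neither of them called. Gpr34 (-0.45 ± 0.11, limma adjusted p = 0.21), Fcrls (-0.38 ± 0.11, 0.334), Ly86 (-0.35 ± 0.10, 0.292), P2ry12 (-0.34 ± 0.12, 0.44) and Olfml3 (-0.24 ± 0.06, 0.191) were also separated and not called.

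Among 16 measured ligands and regulators of microglia, 3 were called lower and none higher in SmoA2 against wild type, or 18.8% against 2.69% of all genes. The list median was -0.10, with 14 below 0 and 2 above. Csf1, a ligand of Csf1r, read 8.18, 8.28 and 8.24 in wild type mice, 7.85, 7.72 and 7.77 in SmoA2 mice and 7.96, 8.04 and 8.0 in Smo/Smo mice, and fell 1.37-fold in SmoA2 (-0.45 ± 0.06, limma adjusted p = 0.00509). Its 3 groups did not overlap, and Smo/Smo stood between the others. The chemokine gene Cxcl12 fell by 0.46 (limma adjusted p = 0.00498) and the transcription factor gene Maf by 0.33 (0.02). The other Csf1r ligand, Il34, had a difference of -0.32 ± 0.13 (0.289), and Tgfb1 (-0.10) and the Cx3cr1 ligand Cx3cl1 (-0.03) were not called. Cxcr4, the receptor for Cxcl12, stood at 0.44 ± 0.12 (limma adjusted p = 0.0941) and Tgfb3 at 0.20 ± 0.09 (0.318), both uncalled with every SmoA2 array above every wild type array. In 7 of the 16, called or not, every SmoA2 array lay below every wild type array. Separation either way held for 56.2% of the list, against 19.1% of all genes (8.89% higher in SmoA2 and 10.2% lower). In Smo/Smo against wild type, none of the 16 was called in limma, 3 had an unadjusted p under 0.05 and Csf1 stood at -0.23 (adjusted p = 0.238). Between the lines, 2 of the 16 were called lower in SmoA2 and none higher, or 12.5% against 2.56% of all genes. They were Cxcl12 (-0.42, limma adjusted p = 0.00966) and Maf (-0.33, 0.0227).

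Partners in the Tyrobp pathway, with other leukocyte signalling and adhesion genes, and markers of phagocytic microglia were also followed. Of 14 measured genes of the first list, 1 was called between the lines, or 7.14% against 2.56% of all genes. It was the GTPase gene Rac2, higher in SmoA2 than in Smo/Smo by 0.44 ± 0.10 (limma adjusted p = 0.0493). The kinase gene Syk gave 0.09. Of 14 measured genes of phagocytic and amoeboid microglia, none was called between the lines (3 had an unadjusted p under 0.05), with a median of -0.04. The lectin gene Clec7a gave 0.08 ± 0.23 and the protease inhibitor gene Cst7 had every group mean in the background range and no call. In SmoA2 against wild type, 1 of these 14 was called, Csf1, which was lower, or 7.14% against 2.69% of all genes. Under limma, 6 of them had an unadjusted p under 0.05 there, 5 lower and 1 higher, and 14.8% of all genes did. None of 10 complement and interferon genes was called between the lines in limma, and 2 had an unadjusted p under 0.05.

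Markers of other cells that a dissected cerebellum can hold moved in their own ways. Of 9 border macrophage genes, 2 were called lower in SmoA2 than in Smo/Smo and none higher, or 22.2% against 2.56% of all genes. In all, 7 lay below 0, and the groups were separated in 4 of these and, the other way, in Ms4a7 (0.34 ± 0.13, limma adjusted p = 0.278). Separation thus held for 55.6% of the list, against 18.2% of all genes (10.1% lower in SmoA2 and 8.12% higher). The mannose receptor gene Mrc1 read 9.34, 9.20 and 9.27 in wild type mice, 8.67, 8.46 and 8.52 in SmoA2 mice and 9.17, 9.17 and 9.22 in Smo/Smo mice, a difference between the lines of -0.64 ± 0.07 (limma adjusted p = 0.00215). The hyaluronan receptor gene Lyve1 differed by -0.89 ± 0.05 (8.70e-05). SmoA2 lay below both other groups in these genes, the reverse of P2ry12 and Aif1. The summed intensity of the border macrophage list was 1617 to 1691 in SmoA2, 2078 to 2143 in Smo/Smo and 2217 to 2250 in wild type. That of the microglia list was 11904 to 13972 in SmoA2, 10049 to 10850 in Smo/Smo and 11152 to 12070 in wild type.

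All 9 endothelial genes lay below 0 in SmoA2 against Smo/Smo, and 4 were called lower, or 44.4% against 2.56% of all genes. These 4 were Cldn5 (-0.32), Kdr (-0.36), Tek (-0.36) and Slco1c1 (-0.39). The summed list was 7044 to 7351 in SmoA2, 8767 to 9153 in Smo/Smo and 8110 to 8257 in wild type. Of 10 meningeal genes, 9 lay below 0 and 4 were called lower, or 40%. Their sums in the same order of groups were 9863 to 12290, 13903 to 14722 and 14994 to 15682. None of 11 choroid plexus genes was called between the lines in limma, nor had any an unadjusted p under 0.05, but the standard errors carry the spread of wild type replicate 3 (for Ttr an SE of 1.41 and a wild type SD of 3.68). In 8 of the 11, or 72.7%, every SmoA2 array lay below every Smo/Smo array, against 18.2% of all genes separated either way. The choroid plexus sums were 8790 to 10393 in SmoA2, 10553 to 12141 in Smo/Smo and 2051 to 6609 in wild type. Of 8 monocyte and neutrophil genes none was called between the lines (3 had an unadjusted p under 0.05), with S100a8 at 5.89, 7.63 and 6.81 in SmoA2 and 7.91, 7.89 and 7.76 in Smo/Smo. Their sums were 407 to 860 in SmoA2, 906 to 1032 in Smo/Smo and 569 to 726 in wild type. Against wild type, 4 of the 8, or 50%, were separated higher in Smo/Smo and none was called, against 15.9% of all genes separated either way. Between the lines in limma, none of 7 lymphocyte genes was called or reached an unadjusted p below 0.05. The lymphocyte sums overlapped in all groups. The part of these other cell types in the differences of the microglia genes was not tested.

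**Figure D4:**
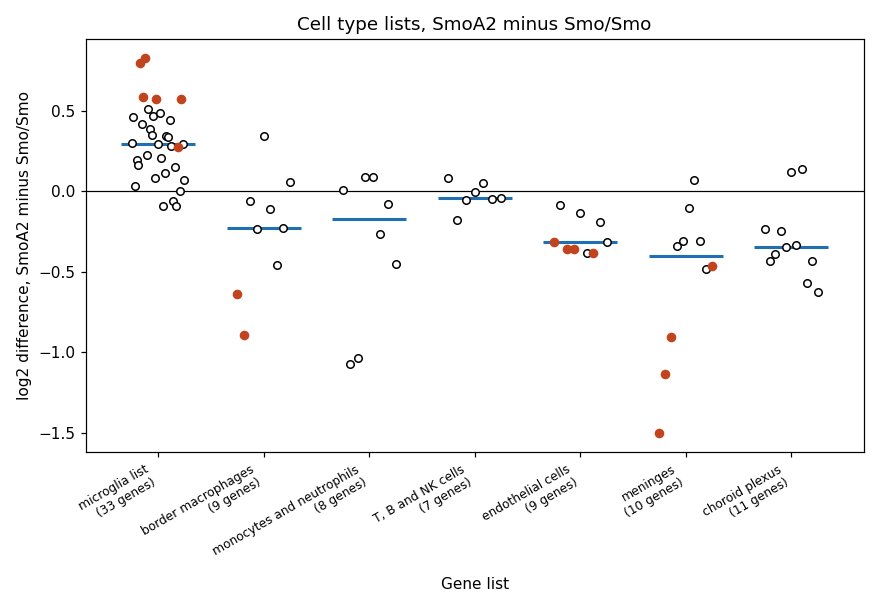
Log2 difference, SmoA2 minus Smo/Smo, of each measured gene (points) in the microglia list and 6 lists of other cell types, with the median of each list as a line; filled points have a limma adjusted p under 0.05. The median is 0.29 for the microglia list, -0.23 for border macrophages, -0.32 for endothelial genes and -0.40 for meningeal genes.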

How the data were processed

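RNA of each of 9 mice was read on 1 custom Affymetrix array. The authors deposited an intensity per probe set, and the submitters' processing notes name RMA without a version. The values are linear, so log2 was taken here. Arrays have no read depth. The platform annotation gave 1 symbol to 24478 of 38385 probe sets, several to 65 and none to 13842; the probe set with the highest mean over all 9 arrays stood for a gene. Tests used limma 3.58.1 under R 4.3.3, with lmFit and eBayes on 1 model of 9 arrays with a mean per group, and p-values were adjusted by Benjamini-Hochberg over 19147 genes. The pipeline was tested on simulated data. Every member was accounted for; values in every array are given for the 12 members with the smallest unadjusted p in either mutant against wild type and for Cx3cr1, Csf1r, P2ry12, Tmem119, C1qa and Tyrobp. Members, context lists and this rule were chosen with earlier results of these data known, so no test over a list is given. Alternatives covered the probe set, a filter on low values, normalization, eBayes settings, array weights, the groups fitted, sex, thresholds and left-out arrays. Promoter sequences came from RefSeq (GRCm38.p6), and 8 motifs were searched in them, the reported PU-box last. Plots were made in matplotlib 3.10.9 (Python 3.11.15).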

Additional observations from a re-analysis of the deposited data

Results flagged for a closer look

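The effects of the 2 transgenic lines against wild type differed from each other in 6 of the 33 microglia genes. The wild type values cancel in this difference, so it is the same test as SmoA2 against Smo/Smo and adds no further evidence. The effect in SmoA2 minus that in Smo/Smo was 0.80 on the log2 scale for P2ry12, 0.59 for Gpr34, 0.58 for Trem2, 0.57 for Aif1 and 0.27 for Olfml3. It was 0.83 for Adora3, whose group means all lie in the background range, so its size cannot be read as a fold. The limma adjusted p of the 6 ran from 0.01 to 0.0434. The adjusted p over the alternatives ranged from 0.00126 to 0.0518 for P2ry12, and reached 0.12 for Adora3 and 0.138 for Olfml3. Smo/Smo samples carry title codes of another prefix, and the line and whatever the prefix marks cannot be told apart.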

How the results depend on the processing

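The median differences of the microglia list kept their direction under every alternative run. With 1 array left out they were 0.048 to 0.18 for SmoA2 against wild type, -0.22 to -0.14 for Smo/Smo against wild type and 0.26 to 0.34 for SmoA2 against Smo/Smo. The counts of called members in those fits were 0 throughout, 0 to 1 and 0 to 7, and of all genes 234 to 445, 21 to 65 and 170 to 467. For SmoA2 against Smo/Smo, members called (and all genes) were 10 (773) with a filter on low values, which kept 28 members, 11 (795) with an intensity trend and robust eBayes, 1 (231) with only the 2 groups fitted and 1 (296) when replicate 3 of wild type and of SmoA2 were dropped together. Sex as a covariate gave 3 members, Aif1, Gpr34 and P2ry12. At an adjusted p under 0.01 the counts were 0 (142), and under 0.1 they were 12 (855). For Smo/Smo against wild type, the 1 call was lost, to 0, with the mean of all probe sets, the filter (which removes Adora3 itself), median centring, only 2 groups fitted (42 genes in all), sex (42), both arrays left out (38) and the threshold of 0.01 (19). It became 2 with array weights (162) and under 0.1 (109). For SmoA2 against wild type, the count of 0 became 2 with the filter and under 0.1 (875), and 1 with the intensity trend. All genes called there were 235 with only 2 groups fitted, 215 with both arrays left out and 187 under 0.01. No called member changed sign. Uncalled values turned sign in 15 to 27 of 688 pairs of a member and a setting per comparison. These pairs include settings in which no sign could turn, the thresholds of 0.01 and 0.1, the filter, the intensity trend and the fits of only 2 groups. The same holds for fits that left out an array of the group not compared, which also leave the median as it was. The probe set alternatives could turn only members with 2 probe sets. Other causes of these shifts were not tested. Signal near background limits Csf3r, Adora3, Itgam, Lyz2 and Ptprc.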
